A study of Homo sapiens with 82 samples.

Results

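Rosiglitazone and GW3965 were set directly against each other in HT29 cells treated for 48 h, with 4 RNA-seq libraries on each side. HT29 is an established human colorectal adenocarcinoma line, and the labels give no other cell line. The 8 libraries were chosen by their labels and are 8 of the 82 samples of the series and of its 32 RNA libraries. Each drug had been given at 10 μM in DMSO to cells kept beforehand in medium without phenol red and with charcoal/dextran-treated serum, so both groups share the line, the medium, the vehicle and the time, and differ in the drug. Rosiglitazone is an agonist of PPARG, and GW3965 is an agonist of both LXR proteins, LXRA (gene NR1H3) and LXRB (gene NR1H2). The DMSO and T0901317 libraries of 48 h (4 each; T0901317 is another LXR agonist) and the libraries of 24 h were used where stated. The labels do not say whether the replicates were separate cultures, so p-values measure the spread between these libraries, which may be technical.

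LXR and PPARG are nuclear receptors that bind DNA with RXR partners. LXR senses oxysterols and is known for raising sterol efflux transporters and, through SREBF1, the synthesis of fatty acids. PPARG senses fatty acids and is known for raising lipid droplet proteins, fatty acid handling genes and, in colon epithelium, markers of maturation.

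The authors deposited whole-number counts per gene. The 4 rosiglitazone libraries held 40706792, 34302034, 42120223 and 33090520 counts, and the 4 GW3965 libraries held 44519250, 36537256, 46288292 and 50938082. Of 14 colorectal epithelial markers, all 14 were detected in both groups and KRT8, a keratin, was the largest, with a summed level of 19880 to 23720 CPM with rosiglitazone and 17890 to 18570 CPM with GW3965. The leukocyte markers CD3E and HLA-DRA and the adipocyte marker ADIPOQ had no count in either group. The 8 leukocyte markers, led by LYZ, summed to 466 to 507 CPM with rosiglitazone and 564 to 616 CPM with GW3965, and the 6 hepatocyte markers, led by SERPINA1, to 37.3 to 44.2 and 80.1 to 94.4 CPM, and their part in the results was not tested. Mitochondrial transcripts took 2.37% to 2.75% of the counts with rosiglitazone and 2.8% to 3.27% with GW3965, with no overlap. TMM scaling factors lay between 0.874 and 0.944 with rosiglitazone and between 0.998 and 1.01 with GW3965. The rosiglitazone libraries were the more spread: on the first principal component, with 48.8% of the variance, they lay from -53.1 (replicate 1) to -93.0 (replicate 3), against 39.9 to 42.3 with GW3965. Of the genes called higher with rosiglitazone, 87% had a higher level in its replicate 3 than in its replicate 1, and of the genes called lower only 20.8% had. The share over all genes tested is not given, so how far these shares depart from it cannot be read here. Counts without replicate 1 or 3 are therefore given beside the main ones, and the part of this spread in the results was not tested.

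With rosiglitazone, 1212 of 22470 genes tested were higher than with GW3965 and 1887 were lower, by edgeR's quasi-likelihood test. The thresholds were 0.01 on the p-value after Benjamini-Hochberg adjustment and 2-fold on the size. These are 5.39% and 8.4% of the genes tested, and a gene is said to be called, higher or lower, where it passed both thresholds. The median log2 fold change over all genes tested was -0.02, and the median size among called genes was 1.48. The largest differences were more often in the lower direction: 192 genes were at least 4-fold higher and 534 at least 4-fold lower, and 14 and 36 were at least 16-fold higher and lower. Of the called genes, 1183 of 1212 and 1821 of 1887 had no overlap between the 4 libraries of each drug. Over all genes tested, 24.8% had all rosiglitazone libraries above and 25.3% all below. Without rosiglitazone replicate 1, 1382 genes were called higher and 2095 lower, and without replicate 3, 1036 and 1674. Genes called higher were 39.1% of the called genes, and 27.2% (898 higher and 2405 lower) when libraries were scaled by their totals alone, a scaling that moved the median of all genes to -0.16. For 10 genes called lower, no rosiglitazone library held a count, and for 2 called higher no GW3965 library did, so their fitted fold changes are no estimates of size.

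**Figure D1:**
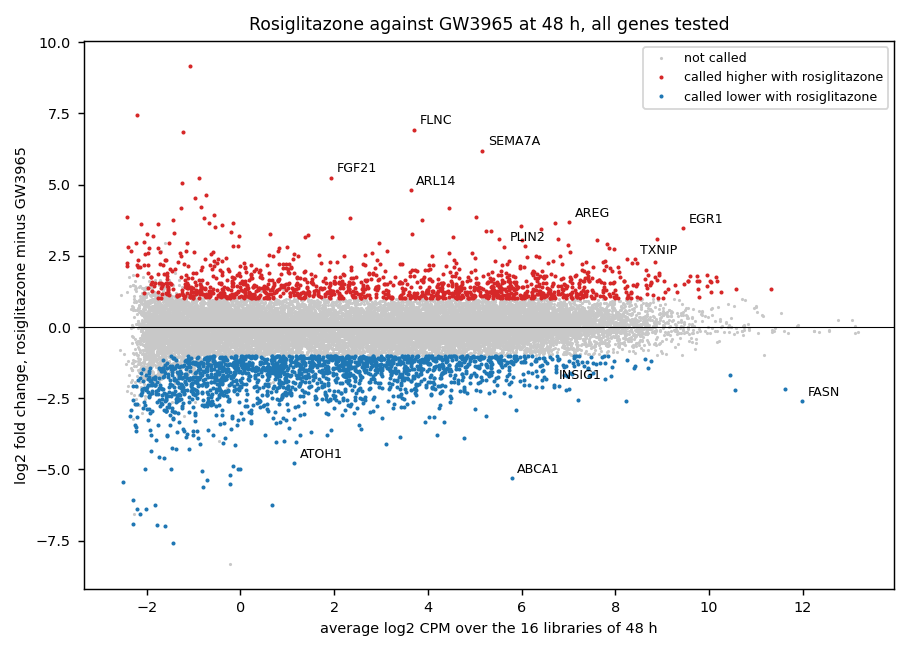
Log2 fold change of rosiglitazone minus GW3965 at 48 h (vertical axis) against the average log2 CPM over the 16 libraries of 48 h (horizontal axis), 1 point per gene tested. Red points are the 1212 genes called higher and blue points the 1887 called lower, and ABCA1 lies far below 0 at -5.31 while FLNC at 6.92 and SEMA7A at 6.19 lie highest of the labelled genes.

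Of 13 tested genes of sterol efflux and sensing, known targets of LXR, 7 were called lower and 1 higher, with a median log2 fold change of -1.11 against -0.02 over all genes tested. In bulk samples, fewer cells with a transcript and less of it per cell cannot be told apart. ABCA1, the transporter that loads cellular cholesterol onto apolipoprotein A-I, held 3.100, 2.92, 3.61 and 3.58 CPM with rosiglitazone and 136, 122, 143 and 124 CPM with GW3965. The groups were far apart, and the rosiglitazone libraries lay close to the DMSO level of 2.41 ± 0.584 CPM (SD, n = 4). ABCA1 had the largest decrease among the named genes, log2 fold change -5.31, SE 0.12, edgeR adjusted p = 2.25e-16, a 39.6-fold difference. PLTP, which transfers phospholipids between lipoproteins, held 3.88, 3.11, 3.81 and 3.71 CPM with rosiglitazone and 18.03, 17.8, 22.4 and 19.2 with GW3965, again with no overlap (log2 fold change -2.41, SE 0.11, edgeR adjusted p = 9.09e-13). The other called members, each followed by its log2 fold change here and below, were SCD (-2.17), ABCG1 (-2.16), SREBF1 (-1.68), SMPDL3A (-1.65) and MYLIP (-1.11). ABCG1 also exports sterol.

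Called genes of fatty acid and cholesterol synthesis were, with 1 exception, lower with rosiglitazone than with GW3965. Of 22 tested genes of fatty acid and triglyceride synthesis, 7 were called lower and 1 higher (median -0.67). Against DMSO, the median of this list was 0.249 with rosiglitazone and 0.69 with GW3965. FASN, the fatty acid synthase, held 1715, 1503, 1254 and 1070.0 CPM with rosiglitazone and 8709, 9323, 7518 and 8317 CPM with GW3965, so that the lowest GW3965 library was above the highest rosiglitazone library (log2 fold change -2.61, SE 0.17, edgeR adjusted p = 1.10e-10). ACSS2, which makes acetyl-CoA from acetate, held 17.1, 14.4, 13.6 and 15.4 CPM and 82.2, 89.4, 72.8 and 83.8 CPM in the same order of groups (log2 fold change -2.44, SE 0.095, edgeR adjusted p = 1.94e-13). DMSO cells held 942 ± 95.2 CPM of FASN and 16.03 ± 1.76 CPM of ACSS2, so GW3965 was the group away from DMSO for both genes. The remaining called members of this list were SCD and SREBF1, given above, and MLXIPL (-1.21), DGAT2 (-1.204) and LPIN1 (-1.13), of which MLXIPL encodes a glucose-responsive factor. ELOVL1, an elongase of very long chain fatty acids, was the member called higher, with 311, 378, 467 and 408 CPM with rosiglitazone and 169.5, 165, 161 and 178 CPM with GW3965 (log2 fold change 1.22, SE 0.09, edgeR adjusted p = 6.10e-10). Of 26 tested genes of cholesterol synthesis and uptake, 10 were called lower and 0 higher (median -0.71), and at an adjusted p under 0.01 with no limit on size 19 were lower and 2 higher. The median of this list against DMSO was -0.179 with rosiglitazone and 0.646 with GW3965. INSIG1, which holds back the SREBF proteins, held 47.6, 42.3, 29.4 and 41.00 CPM and 158, 179, 148 and 165 CPM with no overlap (log2 fold change -2.02, SE 0.11, edgeR adjusted p = 2.37e-11). Enzymes of the pathway among the called genes were HMGCS1 (-1.69), MVK (-1.42), MVD (-1.501), IDI1 (-1.21), LSS (-1.84), SC4MOL (-1.78), TM7SF2 (-1.44) and EBP (-1.13).

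Lipid droplets store neutral lipid behind a coat of perilipins, and the droplet genes that were called were all higher with rosiglitazone. Of 15 tested genes of droplet proteins and lipases, 5 were called higher and 0 lower (median 0.61). PLIN2, a coat protein of lipid droplets, held 99.5, 137, 225 and 164 CPM with rosiglitazone and 21.9, 20.4, 24.5 and 21.9 CPM with GW3965 (log2 fold change 2.82, SE 0.17, edgeR adjusted p = 4.73e-11). Replicate 1 was the lowest and replicate 3 the highest rosiglitazone library of PLIN2, and all 4 were above every GW3965 library, which were themselves above the DMSO level of 8.62 ± 0.966 CPM. G0S2, an inhibitor of the lipase PNPLA2, held 37.1, 49.3, 72.5 and 42.1 CPM and 2.59, 2.65, 3.46 and 2.49 CPM (log2 fold change 4.16, SE 0.19, edgeR adjusted p = 1.29e-12). Here GW3965 was the group away from DMSO, whose level was 33.7 ± 4.31 CPM. The other called members were the droplet coat genes PLIN1 (1.91) and PLIN4 (1.84) and the lipase LIPE (1.54). The adipocyte marker list, which shares PLIN1 and LIPE, summed to 173 to 217 CPM with rosiglitazone and 66.5 to 76.5 CPM with GW3965, with 2 of its 6 markers at 0 counts in each group, ADIPOQ and LEP with rosiglitazone and ADIPOQ and FABP4 with GW3965, and its part in the result was not tested.

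Of 17 tested genes of fatty acid binding and uptake, 4 were called higher and 2 lower (median -0.50). ANGPTL4, a secreted inhibitor of lipoprotein lipase, held 20.4, 27.3, 35.4 and 26.4 CPM with rosiglitazone and 3.66, 3.17, 3.59 and 3.84 CPM with GW3965, both above the DMSO level of 0.2501 ± 0.0785 CPM (log2 fold change 2.94, SE 0.21, edgeR adjusted p = 6.23e-10). The water and glycerol channels AQP7 (1.93) and AQP3 (1.83) and the liver and gut fatty acid binding protein FABP1 (1.42) were also higher. ACSL1, which couples fatty acids to coenzyme A, was lower, at 63.9, 57.9, 52.1 and 62.5 CPM against 169, 175, 178 and 181 CPM (log2 fold change -1.57, SE 0.06, edgeR adjusted p = 2.95e-13). FABP6, which binds bile acids, was at 0.261, 0.292, 0.0815 and 0 CPM with rosiglitazone and 0.558, 1.06, 1.71 and 0.9802 CPM with GW3965, a call that rests on few counts (-2.73). Of 29 tested genes of fatty acid oxidation and ketogenesis, 1 was called higher and 2 lower (3.45% and 6.9%, against 5.39% and 8.4% of all genes tested; median -0.03). PEX11A, a peroxisome division factor, was the higher gene (1.13), and CPT1C (-1.36) and the ketone body enzyme BDH1 (-1.07) were the lower genes. CPT1C missed the p threshold without any 1 of rosiglitazone replicates 2, 3 or 4 and GW3965 replicates 2 or 3, with edgeR adjusted p values from 0.014 to 0.0283, and BDH1 was at -0.93 without rosiglitazone replicate 3.

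Single genes of pyruvate entry and glycolysis differed between the drugs. PDK4, the kinase that switches off pyruvate dehydrogenase, held 33.3, 38.99, 46.7 and 44.1 CPM with rosiglitazone and 22.8, 19.1, 23.2 and 22.6 CPM with GW3965, both well above the DMSO level of 4.49 ± 0.348 CPM. Its direct difference passed the p threshold but not 2-fold (log2 fold change 0.895, SE 0.097, edgeR adjusted p = 1.76e-07). Of 12 tested genes of this switch, 0 were called higher and 2 (16.7%) lower, against 5.39% and 8.4% of all genes tested. The lower genes were the kinase PDK3 (-1.43) and the phosphatase PDP1 (-1.01). Without rosiglitazone replicate 3 or GW3965 replicate 1 or 4, PDP1 was under 2-fold and 1 member was called lower. Of 20 tested glycolysis genes, 1 (5%) was called higher and 3 (15%) lower (median -0.15), so the higher share was near that of all genes tested. HK2, an inducible hexokinase, held 96.3, 112, 136 and 113 CPM and 33.3, 32.98, 33.5 and 36.1 CPM (log2 fold change 1.75, SE 0.08, edgeR adjusted p = 1.98e-12), while the phosphofructokinase regulator PFKFB4 (-2.42), the enolase ENO2 (-1.45) and the aldolase ALDOC (-1.17) were lower. None of 38 tested nuclear genes of oxidative phosphorylation was called by edgeR (median 0.08), with 8 higher and 5 lower at an adjusted p under 0.01. None of the 5 tested apolipoprotein and lipoprotein assembly genes was called either, with 2 lower at an adjusted p under 0.01.

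**Figure D2:**
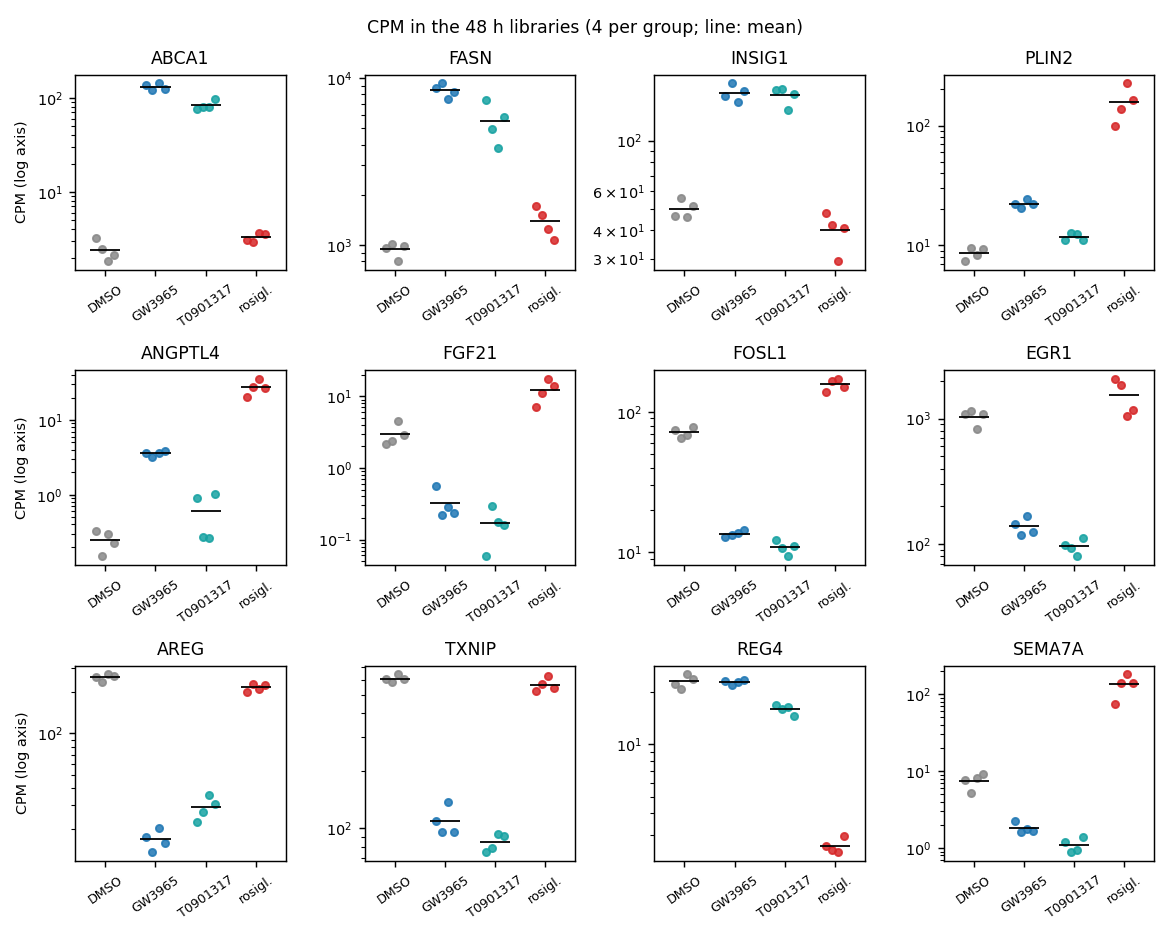
CPM of 12 named genes in each of the 16 libraries of 48 h, on logarithmic axes, with 1 point per library, 4 libraries per group and a line at the mean. ABCA1, FASN and INSIG1 are lower with rosiglitazone than with GW3965, PLIN2, ANGPTL4, FGF21, FOSL1, EGR1, AREG, TXNIP and SEMA7A are higher, and REG4 is low with rosiglitazone only among the 4 groups plotted.

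The transcripts of the receptors themselves differed by less than 2-fold, PPARD excepted. NR1H3 held 165, 164, 160.3 and 159 CPM with rosiglitazone and 229, 240.1, 257 and 227 CPM with GW3965, both above the DMSO level of 76.1 ± 6.77 CPM (log2 fold change -0.56, SE 0.06, edgeR adjusted p = 1.88e-07). NR1H2 was slightly higher with rosiglitazone (log2 fold change 0.51, SE 0.06, edgeR adjusted p = 2.00e-07). PPARG held 50.3, 55.1, 67.5 and 61.1 CPM with rosiglitazone and 37.6, 37.02, 38.7 and 39.97 CPM with GW3965, with no overlap, and DMSO lay above both at 80.9 ± 3.73 CPM (log2 fold change 0.61, SE 0.08, edgeR adjusted p = 1.27e-06). RXRA, the shared partner, was slightly lower (log2 fold change -0.37, SE 0.08, edgeR adjusted p = 3.90e-04). All 4 genes passed the p threshold and were under 2-fold. PPARD, the related fatty acid receptor, was the member of the 14 tested receptors, partners and coregulators that was called: it held 223, 290.1, 344 and 284 CPM and 51.8, 48.6, 49.9 and 53.05 CPM (log2 fold change 2.49, SE 0.1003, edgeR adjusted p = 2.39e-13). Of 23 tested genes of other nuclear receptors, 4 were called higher and 3 lower (median 0.05). NR1H4, the bile acid receptor FXR, held 1.82, 1.75, 1.33 and 2.05 CPM against 0.3798, 0.246, 0.152 and 0.333 CPM, and the thyroid hormone receptor THRB held 12.3, 15.2, 23.5 and 17.1 CPM against 3.04, 3.39, 3.12 and 3.78 CPM. NR0B2, the corepressor SHP, went the other way with 1.07, 1.01, 0.462 and 1.37 CPM against 6.28, 6.22, 6.06 and 6.29 CPM, and so did NR1I2, the xenobiotic receptor PXR, at -2.41. The 4 higher genes also included RARA (1.19) and NR1D1 (1.55), and not all of the lower genes are named.

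AP1 is the dimeric factor of JUN, FOS and ATF family proteins that answers growth and stress signals. Of its 9 tested subunits, 8 were called higher and 1 lower (median 1.63), against 5.39% and 8.4% of all genes. FOSL1 held 139, 167, 172 and 151 CPM with rosiglitazone and 12.9, 13.2, 13.8 and 14.5 CPM with GW3965 (log2 fold change 3.53, SE 0.09, edgeR adjusted p = 3.97e-16). The DMSO level of FOSL1, 71.7 ± 5.37 CPM, lay between the groups. ATF3, also a gene of stress responses, held 175, 185, 145 and 187 CPM and 15.97, 13.9, 18.8 and 14.3 CPM (log2 fold change 3.46, SE 0.13, edgeR adjusted p = 8.13e-14), and its DMSO level of 139 ± 5.82 CPM was nearer to rosiglitazone. The others called higher were FOS (2.33), JUN (1.71), FOSL2 (1.63), FOSB (1.59), JUNB (1.5002) and JUND (1.002). BATF2 was the lower member, with 1.41, 0.519, 0.381 and 0.976 CPM against 5.32, 4.23, 4.200 and 5.33 CPM (log2 fold change -2.52, SE 0.24, edgeR adjusted p = 3.82e-08). Leaving out single libraries kept 7 or 8 subunits called higher.

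Other immediate early genes, which growth factors and stress raise within minutes, showed the same direction, with 14 of 18 called higher and 1 lower (median 1.58). The median of the list was 0.241 for rosiglitazone minus DMSO and -1.16 for GW3965 minus DMSO. GW3965 was thus the group further from DMSO by this median. EGR1 held 2071, 1847, 1042 and 1166 CPM with rosiglitazone and 144, 117, 168 and 124 CPM with GW3965. The DMSO level of EGR1 was 1036 ± 144 CPM. The rosiglitazone libraries of EGR1 spread widely, yet the lowest was several-fold above the highest GW3965 library (log2 fold change 3.47, SE 0.19, edgeR adjusted p = 2.01e-11). PHLDA1 held 409, 534, 627 and 549.7 CPM and 80.2, 77.9, 72.96 and 79.5 CPM (log2 fold change 2.77, SE 0.099, edgeR adjusted p = 6.89e-14). Further called members were EGR2 (2.54), KLF10 (2.44), MAFF (2.203), KLF4 (1.895), MYC (1.77), IER3 (1.68), TRIB1 (1.62), IER2 (1.54) and ZFP36 (1.32), with KLF6, IER5 and SRF between 1.003 and 1.07. BTG2, an antiproliferative gene, was lower, at 23.6, 21.5, 11.8 and 14.3 CPM against 64.8, 68.1, 69.5 and 69.6 CPM (log2 fold change -1.93, SE 0.14, edgeR adjusted p = 6.98e-10). Its DMSO level of 55.1 ± 3.82 CPM was nearer to GW3965.

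Several ligands of the EGF receptor and phosphatases that brake MAP kinases were also higher. Of 14 tested genes of EGFR ligands, receptors and their regulators, 6 were called higher and 2 lower (median 0.61). AREG and its copy AREGB are both in this count. AREG, which encodes amphiregulin, held 199, 229.9, 209 and 226 CPM with rosiglitazone and 17.4, 13.7, 20.5 and 15.9 CPM with GW3965 (log2 fold change 3.68, SE 0.13, edgeR adjusted p = 3.98e-14), and DMSO cells held 256 ± 14.01 CPM. The near-identical copy AREGB gave 3.66, and the counting could split reads between both, so their separate levels are uncertain. The ligands HBEGF (3.06) and EREG (3.04), the EGFR inhibitor ERRFI1 (3.09) and the ligand-releasing protease ADAM17 (1.05) were higher. The receptor gene ERBB2 was lower, with 150.2, 139, 99.7 and 115 CPM against 318, 335, 355 and 326 CPM (log2 fold change -1.41, SE 0.097, edgeR adjusted p = 3.35e-10), and EGF was lower at levels up to 1.20 CPM (-1.96). Of 17 tested DUSP and Sprouty family genes, 7 were called higher and 0 lower (median 0.59). DUSP1, a MAP kinase phosphatase, held 63.9, 90.3, 111 and 93.6 CPM and 6.300, 5.51, 7.296 and 5.49 CPM (log2 fold change 3.86, SE 0.15, edgeR adjusted p = 1.55e-13). The phosphatase genes DUSP5 (2.17), DUSP8 (1.72), DUSP2 (1.54), DUSP16 (1.18), DUSP14 (1.095) and DUSP6 (1.02) were higher too, whereas no tested Sprouty or SPRED gene was called.

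The integrated stress response is the program that ATF4 drives when amino acids are short or translation is slowed. Of its 29 tested genes, 20 were called higher and 0 lower (median 1.48), and 27 were higher at an adjusted p under 0.01 with no limit on size. The count was 20 with any 1 of the 8 libraries left out. FGF21, a secreted metabolic hormone, held 7.03, 11.3, 17.5 and 13.9 CPM with rosiglitazone, 0.558, 0.218, 0.281 and 0.235 CPM with GW3965 and 2.997 ± 1.04 CPM with DMSO (log2 fold change 5.25, SE 0.34, edgeR adjusted p = 1.72e-10). CTH, an enzyme of cysteine synthesis, held 32.8, 38.5, 49.2 and 44.3 CPM and 7.49, 6.12, 11.04 and 7.35 CPM (log2 fold change 2.36, SE 0.18, edgeR adjusted p = 1.22e-09), with a DMSO level of 35.6 ± 1.31 CPM. The other called members were SESN2 (2.297), PPP1R15A (2.28), GDF15 (2.26), SLC6A9 (2.13), CEBPB (1.94), VLDLR (1.79), SLC3A2 (1.78), CHAC1 (1.77), DDIT3 (1.63), DDIT4 (1.53), PSPH (1.52), TRIB3 (1.51), CEBPG (1.48), MTHFD2 (1.47), SLC7A5 (1.34), ASNS (1.22), PCK2 (1.14) and PSAT1 (1.13). ATF4 itself was at 0.46. The median of the list was 0.25 for rosiglitazone minus DMSO and -1.16 for GW3965 minus DMSO, 2 contrasts that share the DMSO libraries and each of which shares a drug group with the direct one. Of 20 tested genes of the unfolded protein response, the program of the endoplasmic reticulum, 1 was called higher and 4 lower (median -0.34). These are 5% and 20% of the list, against 5.39% and 8.4% of all genes tested. The sensor ERN1 (1.51) was higher, and the folding genes SDF2L1 (-1.64), CRELD2 (-1.39) and CALR (-1.37) and the sensor ERN2 (-1.03) were lower.

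ATF4 and its CEBP partners bind a composite element, and the promoters of the genes called higher in this list were searched for TGATGNAA on both strands in the 250 bases before the RefSeq start (build GRCh38.p14, another build than the hg19 named in the submitters' processing notes). Of 19 of the 20 genes with a promoter entry, 3 held a match, ASNS, CHAC1 and FGF21, and 3.14% of all 35116 promoters did. A match is a description and not a bound site. The stretches are shown because they carry the match, given in capitals, in 3 of the genes that moved together.
FGF21, chr19:48755414-48755523, plus strand: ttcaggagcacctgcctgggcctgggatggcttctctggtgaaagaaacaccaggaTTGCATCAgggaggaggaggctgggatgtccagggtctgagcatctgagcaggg
ASNS, chr7:97872409-97872528, minus strand: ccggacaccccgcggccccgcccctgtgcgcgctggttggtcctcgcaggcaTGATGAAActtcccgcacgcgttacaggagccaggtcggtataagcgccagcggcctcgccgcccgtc
CHAC1, chr15:40953221-40953340, plus strand: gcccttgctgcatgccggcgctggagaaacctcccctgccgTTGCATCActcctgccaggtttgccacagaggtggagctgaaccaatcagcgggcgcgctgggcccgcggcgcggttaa

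Other letters were searched in the same windows, also on both strands, and only exact matches were counted. The direct repeats and the sterol element below are so rare over all promoters that 0 was foreseeable in lists this short. A 0 in such short lists does not show that these genes lack an element. The direct repeat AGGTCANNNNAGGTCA that LXR is known for was in 0 of 5 lower genes of sterol efflux and sensing with an entry, and in 0.0142% of all promoters. AGGTCANAGGTCA, known for PPARG, was in 0 of 9 higher genes of droplets, fatty acid binding and uptake, and in 0.0171% of all promoters, and both strings are built from AGGTCA. TCACNCCAC, a form of the sterol element, was in 0 of 8 lower cholesterol genes and 0 of 5 lower fatty acid genes, and in 0.883% of all. The AP1 motif TGANTCA was in 0 of 7 higher AP1 subunit genes and 0 of 10 higher immediate early genes, and in 6.57% of all, and TGACGTCA, the cyclic AMP element, was in 1 of each, JUND and MAFF, and in 1.65% of all.

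Of 30 tested ribosome biogenesis genes, 12 were called higher and 0 lower (median 0.87), and 28 were higher at an adjusted p under 0.01. RRP12, a factor of ribosomal subunit export, held 281, 341, 399 and 339 CPM with rosiglitazone and 93.5, 97.3, 103 and 96.8 CPM with GW3965 (log2 fold change 1.799, SE 0.08, edgeR adjusted p = 1.98e-12), and LYAR, a nucleolar protein, was at 1.603. The other 10 lay between 1.003 for NAT10 and 1.53 for NOP58. The count was 8 without rosiglitazone replicate 3, 14 without its replicate 1, and 7 when libraries were scaled by totals alone. Of 37 tested genes of DNA replication, 1 was called higher, the licensing factor CDC6 (74.4, 82.3, 93.3 and 90.5 CPM against 27.6, 31.3, 24.3 and 30.9 CPM), and 3 lower (CCNE2, LIG1 and GINS1), with 1 lower without rosiglitazone replicate 3 and 6 without its replicate 1. The 1 higher and 3 lower genes are 2.7% and 8.11% of the list, against 5.39% and 8.4% of all genes tested. LIG1, the DNA ligase of replication, ran from 27.6 CPM in rosiglitazone replicate 3 to 101 CPM in replicate 1, against 135 to 140 CPM with GW3965, and its log2 fold change of -1.12 was -0.87 without replicate 3. Of 36 tested mitosis genes only TPX2, a spindle factor, was called (1.02), and it was under 2-fold without rosiglitazone replicate 3, without GW3965 replicate 1 or 3, and with 2 other scalings. Of 19 tested genes in a list of cyclins D, CDK inhibitors, MYC and its antagonists, 3 were called in each direction, 15.8% each. MYC is also counted among the immediate early genes. CDKN2B, a CDK inhibitor, held 26.6, 41.8, 46.7 and 41.3 CPM with rosiglitazone and 9.99, 8.16, 9.44 and 8.61 CPM with GW3965, and MYC, the growth factor-responsive transcription factor, held 424, 551, 566 and 528 CPM and 145, 156, 149 and 158 CPM, both higher. The inhibitors CDKN1C (-2.396) and CDKN2C (-1.796) were lower, and of the MYC antagonists MXD1 was higher (1.45) and MXD4 lower (-1.55).

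Of the called genes of intestinal cell lineages and of secretion, most were lower with rosiglitazone. Of 28 tested lineage transcription factors and Notch genes, 12 were called lower and 3 higher (median -0.64). ATOH1, the factor that commits cells to the secretory lineage, held 0.286, 0.195, 0 and 0 CPM with rosiglitazone, 3.64, 3.66, 3.29 and 3.39 CPM with GW3965 and 2.53 ± 0.415 CPM with DMSO (log2 fold change -4.78, SE 0.37, edgeR adjusted p = 1.80e-09). Rosiglitazone replicates 3 and 4 held no ATOH1 count, and the log2 fold change was -5.76 without replicate 1. POU2F3, the factor of tuft cells, held 0.547, 0.389, 0.516 and 0.488 CPM and 3.33, 3.25, 3.25 and 3.12 CPM (log2 fold change -2.72, SE 0.19, edgeR adjusted p = 4.87e-10), and here GW3965 was the group away from DMSO (0.307 ± 0.119 CPM). Further lower genes were CREB3L1 (-2.61), DLL1 (-2.58), HES6 (-2.55), NEUROG3 (-2.49), INSM1 (-2.24), CDX1 (-2.08), SPDEF (-1.899), DLL4 (-1.63), CDX2 (-1.16) and GFI1 (-1.02). The Notch ligand JAG1 was the largest of the higher genes, with 190.1, 286, 452 and 326 CPM against 41.8, 40.2, 48.6 and 39.5 CPM (log2 fold change 2.88, SE 0.18, edgeR adjusted p = 1.25e-10), followed by KLF4, given above, and ELF3 (1.15). Of 25 tested mucins and goblet secretory genes, 9 were called lower and 0 higher (median -0.84). REG4, a secreted lectin, held 2.58, 2.46, 2.39 and 2.96 CPM with rosiglitazone and 23.3, 22.1, 22.9 and 23.6 CPM with GW3965, and the GW3965 libraries were at the DMSO level of 23.2 ± 1.97 CPM (log2 fold change -3.15, SE 0.09, edgeR adjusted p = 2.17e-15). MUC16 held 0.0781, 0.0973, 0.326 and 0.1301 CPM against 2.301, 1.83, 2.403 and 4.02 CPM (log2 fold change -4.02, SE 0.37, edgeR adjusted p = 1.81e-08), and the log2 fold change was -4.69 without rosiglitazone replicate 3. The others were ST6GALNAC1 (-3.06), MUC13 (-2.22), TFF3 (-2.15), SPINK4 (-1.79), FCGBP (-1.68), MUC20 (-1.61) and AGR2 (-1.33). MUC2, the main gel-forming mucin of the colon, did not reach 2-fold (-0.94).

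Absorptive genes went both ways. Of 21 tested enterocyte and brush border genes, 5 were called higher and 7 lower (median -0.71). KRT20, a keratin of mature colonocytes, held 807, 1011, 1505 and 1163 CPM with rosiglitazone and 438, 460.0, 425 and 474 CPM with GW3965 (log2 fold change 1.32, SE 0.12, edgeR adjusted p = 1.74e-08), and FABP1 held 35.2, 34.97, 30.7 and 37.2 CPM against 11.8, 12.4, 15.2 and 12.3 CPM. CDHR5 (1.15), CEACAM5 (1.12) and EZR (1.04) were also higher, and the count of higher genes was 3 without rosiglitazone replicate 3. SI, the sucrase-isomaltase of the brush border, held 0.313, 0.422, 0.435 and 0.423 CPM against 4.02, 4.21, 5.65 and 5.39 CPM (log2 fold change -3.5996, SE 0.23, edgeR adjusted p = 1.04e-10). The guanylate cyclase ligands GUCA2B (-3.18) and GUCA2A (-2.58) and the brush border genes MYO1A (-2.16), VIL1 (-1.72), ANPEP (-1.32) and MYO7B (-1.21) were lower, with GUCA2B under 1 CPM in every library of both groups. Of 21 tested ion transport genes, 7 were called lower and 0 higher (median -0.74). CFTR, the chloride channel of cystic fibrosis, held 24.5, 24.2, 13.8 and 21.7 CPM with rosiglitazone and 90.5, 87.6, 90.00 and 96.5 CPM with GW3965 (log2 fold change -2.12, SE 0.12, edgeR adjusted p = 3.52e-11), and DMSO was at 102 ± 7.88 CPM. AQP1, a water channel, held 2.08, 1.46, 1.28 and 1.43 CPM against 12.7, 17.04, 13.1 and 14.3 CPM (log2 fold change -3.18, SE 0.15, edgeR adjusted p = 2.24e-12). The transporters SLC26A6 (-1.76), SLC26A2 (-1.303) and SLC12A2 (-1.19), the sodium pump subunit ATP1B1 (-1.25) and the channel subunit KCNE3 (-1.3004) were lower. Of 12 tested Wnt target and antagonist genes, 5 were called lower and 1 higher (median -0.05). NOTUM, which inactivates Wnt proteins, held 1.17, 1.23, 0.679 and 0.5203 CPM against 9.56, 10.9, 12.2 and 11.2 CPM (log2 fold change -3.59, SE 0.203, edgeR adjusted p = 2.40e-11), and SP5 (-2.8004), NKD1 (-2.53), ASCL2 (-2.09) and AXIN2 (-1.62) were lower as well. DKK1, a secreted Wnt antagonist, was the higher gene, with 23.1, 28.2, 30.4 and 28.4 CPM against 5.697, 4.91, 4.63 and 4.18 CPM (log2 fold change 2.503, SE 0.102, edgeR adjusted p = 2.63e-13). Of 15 tested BMP and TGF-beta genes, ID1 was called higher (2.65, with 281, 274, 246 and 276 CPM against 44.4, 41.1, 47.2 and 39.2 CPM) and ID2 (-1.76), TGFBI (-1.103) and BMP4 (-1.096) were lower, ID1 and ID2 being inhibitors of helix-loop-helix factors.

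**Figure D3:**
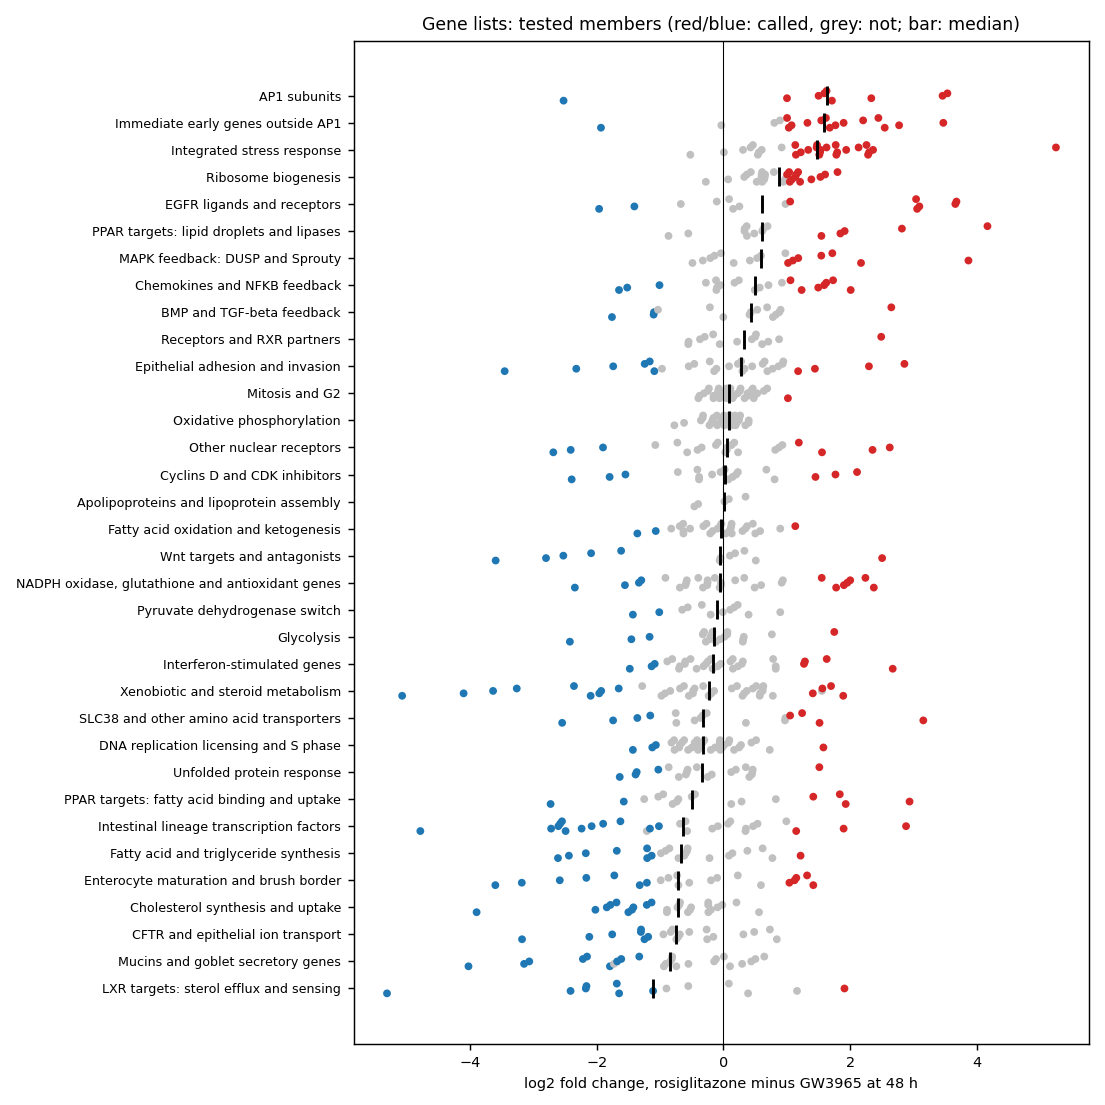
Log2 fold changes, rosiglitazone minus GW3965 at 48 h (horizontal axis), of the tested members of 34 gene lists (rows), ordered by their medians, which are drawn as black bars. Red and blue points are members called higher and lower, and grey points were not called. The AP1 subunits (median 1.63) are at the top and the sterol efflux and sensing genes (median -1.11) at the bottom.

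Defence and transport genes went both ways. Of 21 tested chemokine and NFKB feedback genes, 7 were called higher and 3 lower (median 0.49). IL8, a neutrophil chemokine, held 3.85, 6.23, 3.21 and 4.39 CPM against 0.894, 1.39, 1.52 and 1.49 CPM (log2 fold change 1.73, SE 0.196, edgeR adjusted p = 3.11e-07), and CCL20 (2.01), LCN2 (1.62), RELB (1.59), CXCL2 (1.49), IL32 (1.23) and NFKB2 (1.06) were higher too, of which CCL20 was under 2 CPM in each library and stood at 2.75 without GW3965 replicate 4. The lower genes were CCL15 (-1.65), ICAM1 (-1.52) and CCL28 (-1.01). Of 31 tested interferon-stimulated genes, 4 were called higher and 3 lower (median -0.17). These are 12.9% and 9.68% of the list, against 5.39% and 8.4% of all genes tested. OASL held 12.2, 14.9, 27.4 and 18.1 CPM against 2.95, 2.403, 3.36 and 2.65 CPM (log2 fold change 2.67, SE 0.21, edgeR adjusted p = 1.74e-09), and IRF1 (1.63), ISG20 (1.29) and IFIT1 (1.27) were higher too. The transducer STAT2 (-1.48) and the antiviral genes MX1 (-1.13) and OAS3 (-1.09) were lower. Of 31 tested genes of NADPH oxidases, glutathione and antioxidant defence, 7 were called higher and 4 lower (median -0.06). TXNIP, the thioredoxin-binding protein, held 526, 567, 626 and 545 CPM with rosiglitazone and 109, 95.04, 137 and 95.8 CPM with GW3965 (log2 fold change 2.37, SE 0.103, edgeR adjusted p = 6.44e-13), and the rosiglitazone libraries were near the DMSO level of 608 ± 23.6 CPM. The other higher genes were SRXN1 (2.24), HMOX1 (1.999), GCLC (1.95), TXNRD1 (1.8997) and OSGIN1 (1.78), known targets of the oxidant-responsive factor NFE2L2, and NFE2L2 (1.55) itself. The oxidase NOX1 held 2.19, 2.66, 1.98 and 3.09 CPM against 9.25, 13.5, 13.2 and 14.04 CPM (log2 fold change -2.35, SE 0.15, edgeR adjusted p = 1.12e-10), and its partners NOXA1 (-1.55) and NOXO1 (-1.297) and the peptidase GGT1 (-1.33) were lower.

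Of 17 tested amino acid transporters, 4 were called in each direction (median -0.33). SLC38A4, a transporter of neutral amino acids, held 85.6, 86.2, 70.96 and 82.98 CPM with rosiglitazone, 8.51, 8.98, 9.48 and 9.61 CPM with GW3965 and 1.13 ± 0.203 CPM with DMSO (log2 fold change 3.15, SE 0.09, edgeR adjusted p = 2.32e-15). Both drugs were thus above DMSO and rosiglitazone well above GW3965. SLC1A4 (1.52), SLC7A1 (1.24) and SLC38A1 (1.05) were also higher, and SLC38A11 (-2.55), SLC7A8 (-1.74), SLC7A7 (-1.36) and SLC1A1 (-1.16) were lower. Of 41 tested genes of xenobiotic and steroid metabolism, 4 were called higher and 9 lower (median -0.23). CYP3A5, a drug-metabolizing cytochrome, held 245, 295, 395 and 349 CPM against 90.7, 92.8, 83.4 and 79.9 CPM (log2 fold change 1.89, SE 0.11, edgeR adjusted p = 5.78e-11), and CYP24A1 (1.697), CYP2B6 (1.56) and AKR1B10 (1.41) were higher too. Among the lower genes, the glucuronyl transferase UGT2B15 held 3 counts over all rosiglitazone libraries and 152 over all GW3965 libraries, and UGT2A3 held 6 and 141. The other lower genes were SULT1C2 (-3.64), ABCC2 (-3.26), CYP2J2 (-2.36), CYP2W1 (-2.096), CYP4F12 (-1.96), CYP4F3 (-1.93) and CYP4F2 (-1.65), and reads of the close CYP4F copies may be split. With a filter of at least 1 CPM in 4 libraries, 5 of the lower genes stayed in the test and were called. Of 29 tested genes of adhesion and invasion, 4 were called higher and 6 lower (median 0.28). The laminin chains LAMA3 and LAMB3 led, LAMA3 with 92.8, 147, 264 and 169.6 CPM against 23.1, 24.7, 22.5 and 22.9 CPM (log2 fold change 2.85, SE 0.198, edgeR adjusted p = 3.73e-10) and LAMB3 at 2.29, with ITGA6, their integrin receptor subunit, at 1.44 and the junction protein TJP1 at 1.18. The surface protein CD200 held 0.807, 0.876, 0.109 and 0.585 CPM against 6.703, 6.198, 5.89 and 7.02 CPM (log2 fold change -3.45, SE 0.24, edgeR adjusted p = 3.58e-10), and the proteases MMP14 (-2.32) and MMP7 (-1.24), the junction genes CLDN2 (-1.74) and CDH3 (-1.16) and the fibronectin gene FN1 (-1.09) were lower.

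Over all genes, the 10 largest increases without overlap, among genes whose average log2 CPM reached 1, were FLNC, SEMA7A, FGF21, ARL14, G0S2, DUSP1, GJB6, AKAP12, AREG and AREGB. FLNC, a filamin that crosslinks actin, held 14.2, 40.4, 109.8 and 41.1 CPM with rosiglitazone and 0.447, 0.628, 0.346 and 0.314 CPM with GW3965. Its rosiglitazone libraries differed several-fold among themselves, with replicate 1 lowest and replicate 3 highest, and the SE was correspondingly wide (log2 fold change 6.92, SE 0.53, edgeR adjusted p = 1.69e-09), the log2 fold change being 6.23 without replicate 3. SEMA7A, a membrane-anchored semaphorin, held 75.4, 140.1, 181 and 140.1 CPM against 2.23, 1.64, 1.77 and 1.69 CPM (log2 fold change 6.19, SE 0.24, edgeR adjusted p = 1.98e-13), with a DMSO level of 7.54 ± 1.69 CPM between both. ARL14, a small GTPase, held 31.2, 40.8, 42.6 and 39.96 CPM against 1.74, 1.39, 1.21 and 1.22 CPM (log2 fold change 4.797, SE 0.15, edgeR adjusted p = 1.25e-14). The connexin GJB6 (3.84) and the kinase anchor AKAP12 (3.76) followed. Among the 10 largest decreases were ABCA1, ATOH1, MGAT3, NPY6R, SLC5A9, BTN3A3, CLEC3A, TNFSF10 and SPTLC3. CLEC3A, a lectin, held 1.95, 1.49, 1.58 and 1.46 CPM against 21.9, 22.8, 23.3 and 22.1 CPM (log2 fold change -3.78, SE 0.11, edgeR adjusted p = 2.32e-15). MGAT3, which adds a bisecting sugar to N-glycans, held 1.25, 0.551, 0.353 and 0.9104 CPM against 11.9, 13.5, 14.2 and 13.2 CPM (log2 fold change -4.09, SE 0.201, edgeR adjusted p = 3.43e-12), and SLC5A9, of the sodium-glucose transporter family, held 1.797, 1.78, 0.571 and 0.845 CPM against 15.8, 18.1, 22.8 and 15.96 CPM (log2 fold change -3.86, SE 0.23, edgeR adjusted p = 4.45e-11). The death ligand TNFSF10 (-3.78), the sphingolipid synthesis subunit SPTLC3 (-3.69) and NPY6R (-4.03) and BTN3A3 (-3.797) all had under 1 CPM in each rosiglitazone library.

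Which drug had moved from DMSO differed between genes. Against DMSO at 48 h, 447 genes (1.99% of those tested) were called higher and 870 (3.87%) lower with rosiglitazone, and 727 (3.24%) higher and 570 (2.54%) lower with GW3965. Both sets of calls share the DMSO libraries, and each shares a drug group with the direct comparison, so the classes are a description. Of the 1212 genes higher in the direct comparison, 388 (32%) had GW3965 alone called, below DMSO, 222 (18.3%) had rosiglitazone alone called, above DMSO, and 32 (2.64%) had both called in opposing directions. For 560 (46.2%) neither drug was called against DMSO, and for 10 both were called in the same direction. Of the 1887 lower genes, 609 (32.3%) had rosiglitazone alone called, below DMSO, 402 (21.3%) had GW3965 alone called, above DMSO, 67 (3.55%) had opposing calls, 795 (42.1%) had neither and 14 had both called in the same direction. Among the opposing genes, SEMA7A stood 4.15 from DMSO with rosiglitazone and -2.04 with GW3965, FGF21 2.04 and -3.21, ARL14 2.27 and -2.53, and DUSP1 1.62 and -2.24, all log2 fold changes. Among the largest opposing decreases were MGAT3 at -2.26 and 1.83, NPY6R at -2.39 and 1.63 and SLC5A9 at -2.14 and 1.72. AREG was -0.24 with rosiglitazone and -3.92 with GW3965, whereas REG4 was -3.16 and -0.01.

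**Figure D4:**
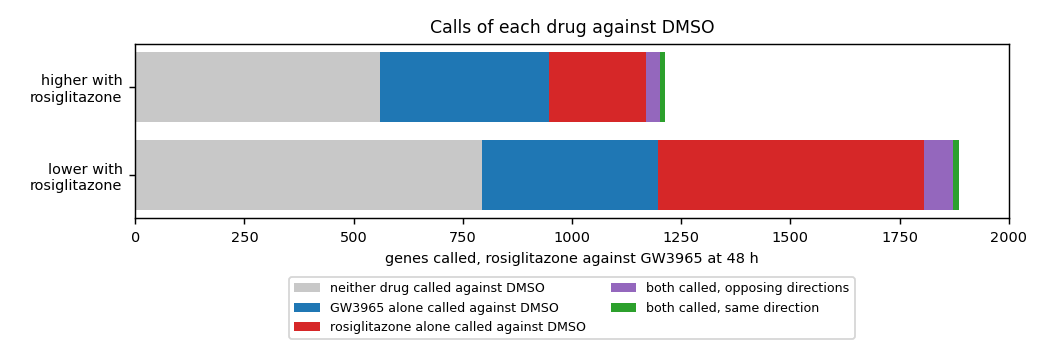
Number of genes (horizontal axis) called higher and lower with rosiglitazone than with GW3965 at 48 h, divided by which drug was called against DMSO. Neither drug was called against DMSO for 560 of the 1212 higher and 795 of the 1887 lower genes, and opposing calls are the thin purple segments of 32 and 67 genes.

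The same comparison at 24 h, in separate libraries of both drugs, gave fewer calls, 121 higher (0.523%) and 378 lower (1.63%) of 23140 genes in a fit of all 32 RNA libraries. Of the 1212 genes called higher at 48 h, 67 (5.53%) were called higher and 29 (2.39%) lower at 24 h, and of the 1887 called lower at 48 h, 251 (13.3%) were called lower and 2 (0.106%) higher. The change of the difference was tested as an interaction, and 1082 genes (4.68%) had a difference that was higher at 48 h than at 24 h and 993 (4.29%) a lower one. Without rosiglitazone replicate 3 of 48 h these were 921 and 797, and without its replicate 1 they were 1250 and 1288. The upward changes were 52.1% of these calls, and 39.8% (870 and 1315) when libraries were scaled by totals alone. ABCA1 differed at both times, with -5.56 at 24 h and -5.31 at 48 h, and its change did not pass the test, at 0.27 with SE 0.16 and edgeR adjusted p = 0.212. PPARG was below GW3965 at 24 h and above it at 48 h, at -0.39 and 0.61, and its change was 1.02 with SE 0.11 and edgeR adjusted p = 3.05e-09. For PDK4, at 1.12 at 24 h and 0.895 at 48 h, the change was -0.21 with SE 0.14 and edgeR adjusted p = 0.252.

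Early-response and stress genes changed between the times. Of 9 AP1 subunits, 0 were called at 24 h (median 0.22), and the change was called higher for 8 and lower for BATF2. FOSL1 held 36.1, 36.5, 31.1 and 34.99 CPM with rosiglitazone and 25.8, 27.2, 26.1 and 26.5 CPM with GW3965 at 24 h, and the change was 3.15 with SE 0.12 and edgeR adjusted p = 8.06e-20. EGR1 held 88.4, 68.3, 78.4 and 65.3 CPM and 53.4, 79.02, 95.05 and 86.8 CPM at 24 h, with the groups overlapping, and the change was 3.55 with SE 0.25 and edgeR adjusted p = 5.40e-13. At 48 h, DMSO cells held 71.7 ± 5.37 CPM of FOSL1 and 1036 ± 144 CPM of EGR1, above every drug library of 24 h. The DMSO libraries of 24 h were not set against those of 48 h. How far these levels moved without a drug was therefore not tested. Of 18 other immediate early genes, the change was called higher for 15 and lower for 1. Of 28 integrated stress response genes with counts in both drug groups at 24 h, 11 were called lower and 0 higher at 24 h (median -0.50), and the change was called higher for 20 and lower for 0, so that the list stood on opposite sides of GW3965 at the 2 times. SLC6A9, a glycine transporter, held 0.778, 0.721, 1.45 and 0.854 CPM with rosiglitazone and 3.91, 6.35, 8.04 and 9.24 CPM with GW3965 at 24 h, rosiglitazone being lower in every library, while at 48 h it held 93.1, 126, 160.0 and 125 CPM and 28.2, 22.4, 39.4 and 25.02 CPM, rosiglitazone being higher in every library. FGF21 had no count in any rosiglitazone library of 24 h and at most 0.148 CPM with GW3965, so no fold is given for that time. INHBE, an activin subunit, held 0.0519, 0.0866, 0.0316 and 0.06101 CPM with rosiglitazone and 0.394, 0.383, 0.345 and 0.643 CPM with GW3965 at 24 h and 7.397, 12.5, 11.2 and 11.2 CPM and 1.79, 1.502, 2.14 and 1.47 CPM at 48 h, again with the order of groups turned.

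In the opposite direction, NR0B2 held 2.67, 3.95, 5.31 and 3.54 CPM with rosiglitazone and 1.99, 2.05, 1.97 and 3.38 CPM with GW3965 at 24 h, with overlapping groups, and was lower with rosiglitazone at 48 h, as given above. ATOH1 was lower with rosiglitazone at both times, at -1.38 and -4.78, and the change was -3.39 with SE 0.39 and edgeR adjusted p = 2.57e-08. Of 26 cholesterol genes, 1 was called lower at 24 h and the change was called lower for 7. Of 13 sterol efflux and sensing genes, 7 were called lower at 24 h, not all of them the genes called at 48 h, and the change was called higher for 3 and lower for 1. PLTP was at -0.74, not called, at 24 h and at -2.41 at 48 h, with a called change of -1.66 with SE 0.19 and edgeR adjusted p = 2.99e-08. ABCG1 was called lower at both times, at -4.17 and -2.16, and its change was called higher. Of 30 ribosome biogenesis genes 0 were called at 24 h, and the change was called higher for 6 and lower for 0. ANGPTL4, at 3.799 at 24 h and 2.94 at 48 h, and SLC38A4, at 3.93 and 3.15, were called higher at both times.

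**Figure D5:**
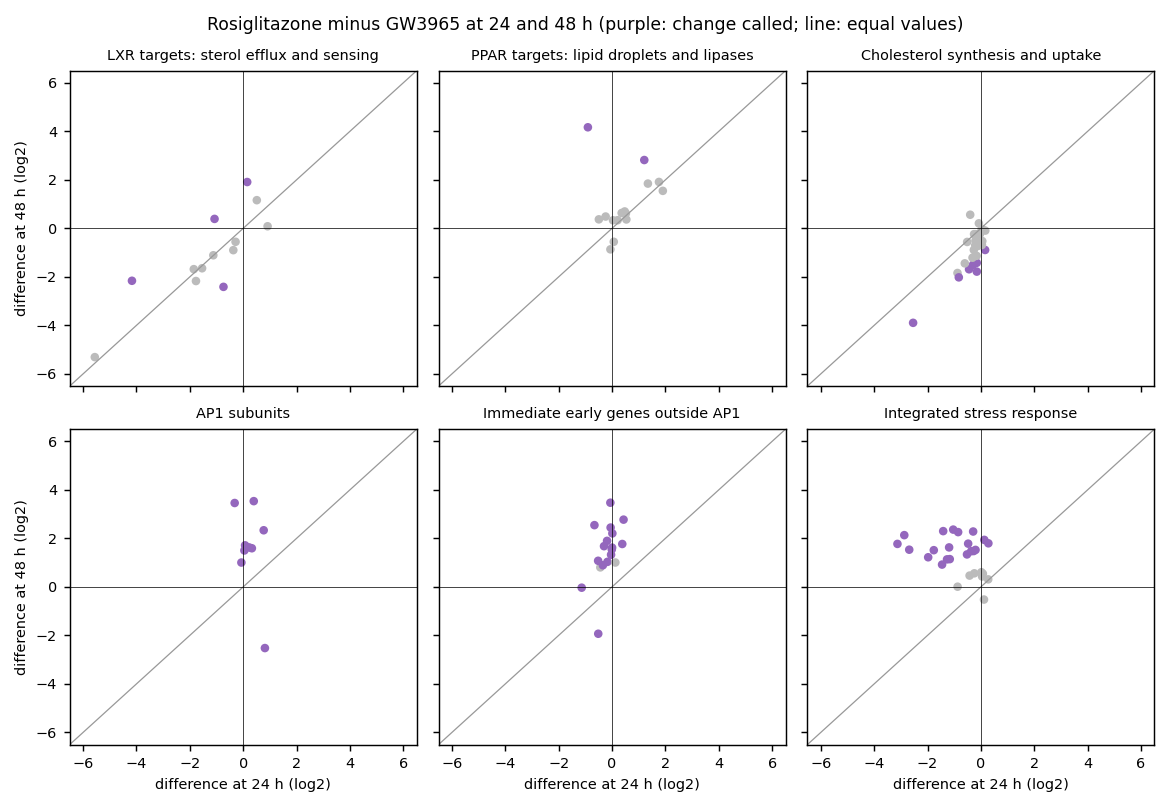
Log2 difference of rosiglitazone minus GW3965 at 24 h (horizontal axis) and at 48 h (vertical axis) for the tested members of 6 gene lists with counts in both drug groups at 24 h, 1 point per gene. The grey line marks equal values and purple points are genes whose change was called: AP1 subunits (8 higher and 1 lower of 9) leave the line upwards from near 0, and integrated stress response genes (20 of 28) lie left of 0 at 24 h and above 0 at 48 h for the most part.

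T0901317, the other LXR agonist, was given at the same dose and time in separate libraries, and its comparison shares the rosiglitazone libraries with that of GW3965. Against T0901317, 1496 genes (6.66%) were higher and 2174 (9.68%) lower with rosiglitazone, so that 40.8% of the calls were higher, or 24.2% (1002 and 3144) with scaling by totals alone. ABCA1 was at -4.66 against T0901317 and -5.31 against GW3965, PLIN2 at 3.73 and 2.82, ANGPTL4 at 5.44 and 2.94, FOSL1 at 3.86 and 3.53, and PPARG at 0.25 and 0.61, in log2. List medians against T0901317 were -1.0 for sterol efflux and sensing, -0.89 for cholesterol synthesis, 0.59 for lipid droplets, 1.87 for AP1 subunits, 1.41 for the integrated stress response and 1.07 for ribosome biogenesis, beside -1.11, -0.71, 0.61, 1.63, 1.48 and 0.87 against GW3965. Other lists were less alike. Medians were -0.83 for interferon-stimulated genes, -0.599 for Wnt genes, -0.07 for fatty acid binding and uptake and 0.094 for glycolysis. Against GW3965 they were -0.17, -0.05, -0.50 and -0.15. Of the interferon-stimulated genes, 2 were called higher and 9 lower against T0901317. IRF1, called higher against GW3965, was at 0.42 and not called. Not all lists are given here. GW3965 and T0901317 were not tested against each other here, and equal directions do not show that they act alike.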

How the data were processed

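The report rests on 8 RNA-seq libraries of HT29 cells, 4 treated with rosiglitazone and 4 with GW3965 for 48 h at 10 μM, beside the DMSO and T0901317 libraries of 48 h and the 16 libraries of 24 h. The authors deposited whole-number read counts per gene, with symbol and Ensembl identifier, for each time point. The submitters' processing notes name TopHat, Cufflinks, Bowtie, MACS and hg19 without versions or roles, and for the counting program and its use of strand nothing is given in the sources used here, so reads of overlapping or near-identical genes could be split. Binding site files were not used here.

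Counts were tested with edgeR 4.0.16 (R 4.3.3, limma 3.58.1): filterByExpr by group, TMM scaling and the quasi-likelihood test on all 16 libraries of 48 h, which left 22470 of 51838 listed genes. The change with time was a contrast in 1 fit of all 32 libraries, with 23140 genes. Called genes passed 0.01 after Benjamini-Hochberg adjustment over all genes tested and differed by 2-fold or more. CPM values are counts relative to the TMM-scaled library total. No 2 replicates agreed within sampling noise, and the per-sample columns that could not be tied to a sample numbered 0. In simulated counts with 200 changed genes, edgeR recovered 197 of them with 0 false calls in the direct comparison, over 22112 genes. The changed genes were not of low level and differed by clearly more than 2-fold. No other gene differed between groups, and each gene had the same spread in all groups. The rosiglitazone libraries were in fact the more spread, so the simulation checks the procedure and gives no error rate for these data. Alternatives were DESeq2 1.42.0, other scalings, filters, fold limits, fewer libraries, a replicate block and leaving out each replicate.

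The gene lists and the comparison were chosen with earlier results of these data known. Named genes were the receptors NR1H2, NR1H3, PPARG and RXRA with PDK4, up to 2 called genes per direction in each of the 34 lists, the 10 largest differences per direction at an average log2 CPM of at least 1 without overlap, the 4 largest per direction that were called oppositely against DMSO, and the 3 largest changes with time per direction. Other called list members are given by their log2 fold change so that the lists can be read gene by gene, and ATF4 and MUC2 were added as known members that were not called. Some genes that the rule names are not reported here. Promoters came from RefSeq, build GRCh38.p14, and were matched by symbol for 90 of 115 named genes.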

Additional observations from a re-analysis of the deposited data

Results flagged for a closer look

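Among 240 sets of 4 libraries, covering each named gene and 5 library measures in both drug groups, 8 held a library that stood apart by Dixon's test, and chance alone gives about 1 in 20. Of the 8, 3 were with rosiglitazone and 5 with GW3965. With rosiglitazone, replicate 2 held 11.9 CPM of the enolase ENO2, and replicate 1 held 0.313 CPM of the disaccharidase SI and 0.0781 CPM of the glucuronyl transferase UGT2B15, the last from very few counts. With GW3965, replicate 3 held 15.2 CPM of FABP1 and 3.46 CPM of G0S2, replicate 4 held 36.1 CPM of HK2, replicate 1 held 9.25 CPM of NOX1, and replicate 2 held 19.1 CPM of PDK4.

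The difference between the drugs changed from 24 h to 48 h, by the edgeR interaction test, upwards for 1082 genes and downwards for 993. FGF21, with no count in any rosiglitazone library of 24 h, is left out of the values that follow, since its fitted change is no estimate of size. The next largest upward changes of the log2 difference among the named genes were 5.51 for INHBE, 5.09 for G0S2 and 5.02 for SLC6A9. INHBE rests on very few rosiglitazone counts at 24 h, as its levels above show, so its size and rank are imprecise. G0S2 was also low at 24 h, at 0.549 to 1.10 CPM with rosiglitazone. The largest named downward changes were -3.42 for BTN3A3, -3.39 for ATOH1 and -3.37 for NR0B2.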

How the results depend on the processing

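Of 115 named genes, none reversed under a setting in which it was tested. Over these settings 1927 values kept their direction and call, 20 lost the call and 1 gained it. With a filter of at least 1 CPM in 4 libraries, 109 of the genes were tested, and the fold limit of 1.5 was not applied to single genes. Most named genes were chosen for large differences in these same libraries, so the lack of reversals was foreseeable and does not extend to other called genes. A fold limit of 1.5 in place of 2 gave 2839 genes higher and 3393 lower against GW3965, 3174 and 3701 against T0901317, and 2320 and 2164 for the change with time, as its looser limit implies. A test against a fold change of 1.5 (glmTreat) left 638 genes with a lower difference at 48 h. Leaving out 1 library gave 1036 to 1382 genes higher and 1674 to 2095 lower against GW3965, 1337 to 1647 and 1940 to 2397 against T0901317, and 921 to 1250 and 797 to 1288 for the change, each lowest without rosiglitazone replicate 3 and highest without replicate 1, and the cause was not tested. All other settings kept the counts of both directions within 1.5 times. PEX11A was just under 2-fold (0.995 in log2) when libraries were scaled by totals alone, and CPT1C, CCL20 and LIG1 among others lost the call under glmTreat.

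The replicate numbers do not pair the libraries: correlations of deviations between same-numbered rosiglitazone and GW3965 libraries were between 0.00071 and 0.0271, and only replicates 2 and 3 correlated best with their own number. With the numbers as a replicate block, 1194 genes were higher and 1902 lower against GW3965, 1477 and 2148 against T0901317, and 1080 and 988 for the change, and no named gene lost its call. Genes at under about 1 CPM in either drug group, such as UGT2B15, ATOH1, MUC16 and FABP6, rest on few counts there. The size of their differences is imprecise at this depth. ATOH1 and MUC16 were that low with rosiglitazone only, with 17 and 22 counts over its libraries against 622 and 486 with GW3965.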
